A study of Mus musculus with 9 samples.

Results

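Sox9, Sox5, Sox6, Runx2, Runx3, Acan, Ihh, Pthlh and Pth1r are genes of cartilage differentiation, and the HOXA13 and HOXD13 binding sites around them were described in distal forelimb cells (DFL) of mouse embryos. A site was counted for a gene when a peak summit lay in the gene body or within 150 kb on either side, and for Sox9 within 1 Mb on its 5′ side, where a long gene desert lies. These windows held 732 of the 193725 sites obtained by merging the peak intervals of all 9 libraries, and the 9 genes stand among 20471 protein-coding genes that were examined.

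Binding was mapped by CUT&RUN, in which an antibody brings micrococcal nuclease to a DNA-bound protein and the released fragments are sequenced. The libraries were made from separate pools of limb tissue of several embryos of strain B6CBAF1, from crosses between heterozygous adults and with no treatment. Wild-type (wt) DFL were taken at E12.5, with 3 libraries for HOXA13 and 3 for HOXD13. The remaining 3 libraries came from line II1TDOM 542, which carries an extra copy of the HoxD enhancer II1 with an HBB promoter and lacZ in T-DOM, a regulatory domain that flanks the HoxD cluster. The paper describes the 542 embryos used for HOXA13 and HOXD13 CUT&RUN as homozygous for this insertion. Of the 3 libraries from this line, 2 were HOXA13 libraries of E12.5, and the title of the last, for HOXD13, gives E11.5. The protocol in the labels gives a single collection day for all samples, so the stage of that last library rests on its title. In addition, wt HOXD13 replicate 3 was described as a re-analysis of an earlier library. The 542 reads were mapped on the mutant genome and the wt reads on mm10, so genotype and mapping genome cannot be told apart. None of the genes lies on chromosome 2, which carries the insertion. No control library entered the peak calls, so no value here has a background library beside it.

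SOX9 is the transcription factor that starts and maintains the chondrocyte program, and SOX5 and SOX6 work with it on cartilage matrix genes such as Acan, which encodes the proteoglycan aggrecan. RUNX2 and RUNX3 drive the later, hypertrophic steps and, for RUNX2, bone formation. IHH, made by prehypertrophic chondrocytes, and PTHLH, made near the joint surface and read by the receptor PTH1R, form the loop that sets the pace of that maturation. HOXA13 and HOXD13 (HOX13 together) are homeodomain factors of the digit field, where the digit condensations form. Distant elements in the desert on the 5′ side of Sox9 are known to regulate that gene.

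The sequences below are those of 121 bases centred on the median summit of a site, on the plus strand of GRCm38, the assembly of mm10. They are shown because they are the leading sites outside promoters (called in most lists, then ranked highest within them) for the genes named or the sites on which the comparisons turn. Sites are numbered along the chromosome within each window. Capitals mark each match to the HOX13 consensus, searched on both strands as CCNATAAA, CCNGTAAA, CTNATAAA or CTNGTAAA, and matches can overlap. A window of this length held a match at 20.9% of all 193725 sites and at 6.08% of windows placed 1000 bp to either side. Most of the sites shown were called in all 9 lists, where 30.7% of all sites and 34.2% of member sites held a match.
Sox9_57, chr11:112175517-112175637: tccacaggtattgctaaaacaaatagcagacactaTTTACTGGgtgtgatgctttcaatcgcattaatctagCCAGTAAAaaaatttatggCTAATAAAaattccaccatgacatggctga
Sox9_113, chr11:112599068-112599188: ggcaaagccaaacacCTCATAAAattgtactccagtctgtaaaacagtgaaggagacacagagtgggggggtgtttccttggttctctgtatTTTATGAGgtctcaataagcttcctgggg
Sox9_79, chr11:112327779-112327899: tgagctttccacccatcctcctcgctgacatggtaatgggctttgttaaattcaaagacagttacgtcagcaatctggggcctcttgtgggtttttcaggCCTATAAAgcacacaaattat
Sox9_150, chr11:112885542-112885662: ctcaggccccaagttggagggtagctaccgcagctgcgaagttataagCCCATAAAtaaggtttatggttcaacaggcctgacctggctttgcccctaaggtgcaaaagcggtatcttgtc
Sox5_36, chr6:143918544-143918664: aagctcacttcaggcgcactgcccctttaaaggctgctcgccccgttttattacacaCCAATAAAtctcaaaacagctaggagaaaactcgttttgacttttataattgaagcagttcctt
Sox6_112, chr7:115920205-115920325: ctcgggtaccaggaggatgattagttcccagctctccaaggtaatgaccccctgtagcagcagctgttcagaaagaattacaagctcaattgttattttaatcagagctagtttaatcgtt
Runx2_33, chr17:44610829-44610949: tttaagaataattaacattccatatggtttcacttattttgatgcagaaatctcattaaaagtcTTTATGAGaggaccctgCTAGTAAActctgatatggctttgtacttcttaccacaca
Runx3_40, chr4:135285509-135285629: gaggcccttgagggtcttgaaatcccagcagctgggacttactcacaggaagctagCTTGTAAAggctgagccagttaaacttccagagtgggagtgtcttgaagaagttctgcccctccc
Acan_29, chr7:79210888-79211008: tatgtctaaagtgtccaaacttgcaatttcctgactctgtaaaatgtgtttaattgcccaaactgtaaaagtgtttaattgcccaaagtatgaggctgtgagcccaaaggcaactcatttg
Pthlh_8, chr6:147145666-147145786: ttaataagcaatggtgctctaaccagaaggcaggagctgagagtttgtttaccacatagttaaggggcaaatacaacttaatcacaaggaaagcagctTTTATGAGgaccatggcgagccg

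The desert site Sox9_57 held 3 matches within these bases, the most of the sequences shown. Sox5_36 held a single CCAATAAA that began 3 bp before the summit. Sox6_112 and Acan_29 held none, which says only that these letters are not in this window. The top sites of Ihh and Pth1r outside promoters, Ihh_18 and Pth1r_23, held none either.

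Peak lists differed in length and depth. They held 31195 to 187946 summits in 23939 to 117719 intervals, and the read ends recovered from the lists numbered 36.9 to 65.5 M per library. Wt HOXD13 replicate 1 was the shortest, with 22802 intervals on the chromosomes used here. The wt replicates numbered 3 differed from the other wt lists in both antibodies, and results that rest on them are given with and without them.

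Sites were spread unequally over the 9 genes. Sox5 had 175, Sox9 153, Sox6 141, Runx2 84, Runx3 45, Pthlh 42, Acan 34, Pth1r 32 and Ihh 26. The long genes held theirs mainly in introns, with 133 for Sox5, 101 for Sox6 and 58 for Runx2, whereas 150 of the 153 Sox9 sites were distal. Windows differed in length, from 1254 kb for Sox5 and 1156 kb for Sox9 to 306.4 kb for Ihh. Gene bodies spanned 954 kb for Sox5, 568 kb for Sox6 and 319 kb for Runx2, against 61.6 kb or less for the other genes. The part of these lengths in the counts and positions was not tested. Over all members, 310 sites were intronic, 398 distal, 16 at a promoter and 8 in an exon. A promoter site had a summit within 1000 bp of an annotated transcript start, and an intronic site lay in the gene record outside its exons.

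Of the 732 sites, 73 were called in all 9 lists, which is 9.97% against a background of 6.40% of all merged sites. Sites seen in a single list made up 44.3% of the member sites and 50.0% of all sites. Among the sites in all 9 lists, 40 were distal, 29 intronic, 3 at a promoter and 1 in an exon, the last being Sox6_28. Sox9 and Sox5 had 17 each, Sox6 13, Runx2 and Runx3 7 each, Pth1r 5, Acan 3, and Ihh and Pthlh 2 each. The count was 91 when wt HOXD13 replicate 1 was left out, 84 without wt HOXD13 replicate 3, 90 without both wt replicates 3, and 73 to 76 without any other single list. With a fold enrichment of at least 5 required in every list, 8 remained. The shares of all merged sites under these changes are not given, so these counts lack a background.

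**Figure D1:**
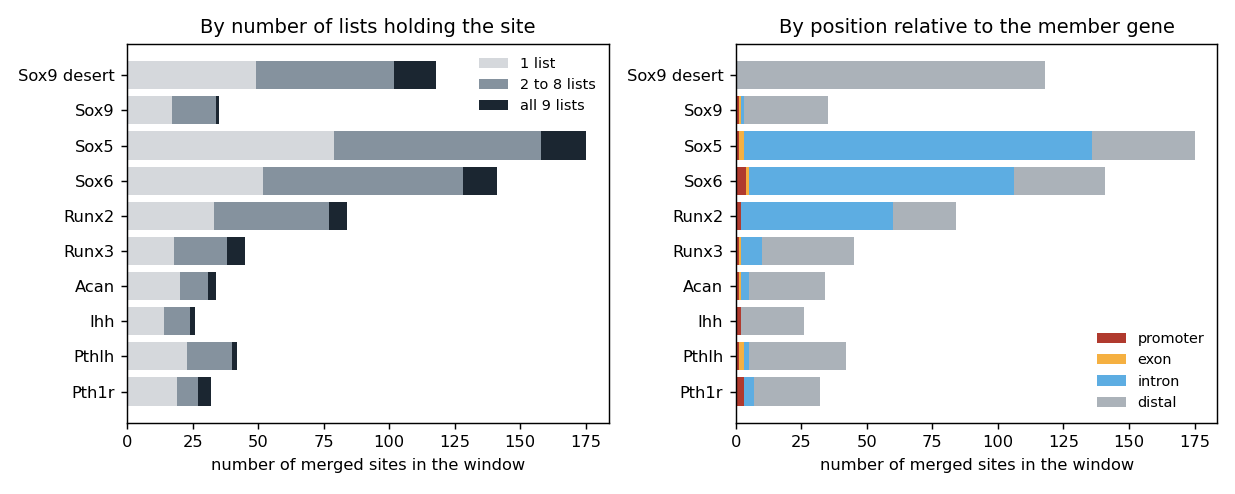
Number of merged sites in each window (x axis) for the Sox9 desert (150 kb to 1 Mb on the 5′ side) and for each gene with 150 kb on either side (y axis), split by the number of lists that hold the site (left) and by position (right). The desert bar holds 118 sites, 16 of them in all 9 lists, while the Sox9 bar holds 35 with 1 in all 9 lists.

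Density was set beside that of other genes over the same window of the gene body and 150 kb on either side. Runx3 had 19.6 sites in all 9 lists per Mb, above 95.2% of protein-coding genes. Pth1r had 15.4 (percentile 89.0), Sox6 15.0 (88.2), Sox5 13.6 (86.7) and Runx2 11.3 (77.3). Acan had 8.30 (63.3), Ihh 6.53 (56.7), Pthlh 6.41 (53.9) and Sox9 itself 3.27 (37.3), and the median over all genes was 6.17. Sites around Pth1r and Ihh lay close to other genes, as their windows also held 13 and 6 other coding genes. The Sox9 and Sox5 windows held none.

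Sox9 differed in density between its surroundings and its desert. Within 150 kb of the gene, 35 sites were found and only the promoter site was in all 9 lists. The desert, 850 kb at chr11:111782224-112632223, held 118 sites, of which 16 were in all 9 lists. This is 139 sites and 18.8 sites in all 9 lists per Mb. Among 2514 bins of 1 Mb across the genome, 26 held at least as many sites in all 9 lists, which puts the desert at percentile 99.0. Of the 270 bins without a coding gene, 0 held as many, and their median was 0.

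The desert sites in all 9 lists ran from 980 to 183 kb before the Sox9 start. The median gap between neighbours was 31.8 kb, with the smallest at 3.46 kb and the largest at 204 kb. Counted from the gene in steps of 100 kb, no step held more than 3, and 0 fell between 400 and 300 kb. With both replicates 3 left out, 17 desert sites were in all lists and 72 bins held at least as many per Mb (percentile 97.1). Among the 20000 strongest intervals of each list the desert kept 8 such sites and 36 bins matched it.

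Every list called desert intervals. Wt HOXA13 lists had 69, 48 and 55, and wt HOXD13 lists had 18, 50 and 38, for replicates 1 to 3. The 542 HOXA13 lists had 58 each and the 542 HOXD13 list had 70. As a share of the list, these were 8.32, 8.58 and 10.0 per 10000 intervals for wt HOXA13 and 7.89, 6.82 and 10.6 for wt HOXD13. The shares of the antibodies overlapped, and the low count of wt HOXD13 replicate 1 went with its short list.

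**Figure D2:**
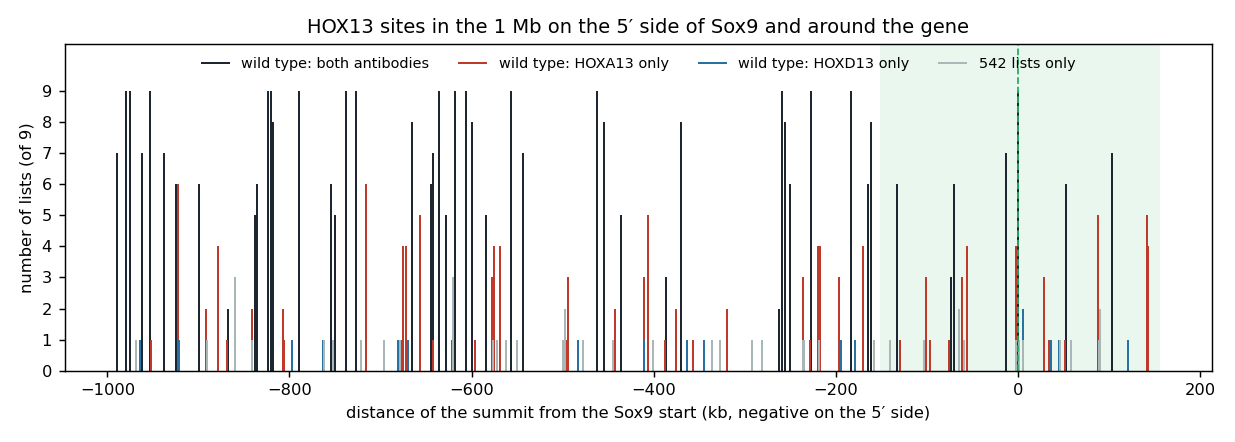
Sites in the Sox9 window by distance of the summit from the Sox9 start in kb (x axis) and by number of lists (y axis), coloured by the antibodies that called the site in wt. The shaded band marks the gene and 150 kb on either side, and the 16 lines that reach 9 to its left are the desert sites in all lists.

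The leading desert site was Sox9_57 (chr11:112174789-112176384), 607 kb before the gene in intergenic sequence. Its fold enrichment, which divides the pileup at the summit by the local background, was 15.9, 15.6 and 8.19 in wt HOXA13 replicates 1 to 3. In wt HOXD13 it was 5.01, 9.97 and 5.11, in 542 HOXA13 13.8 in both replicates, and in 542 HOXD13 11.0. It stood at percentile 99.5 of its list in the median, and the groups overlapped since HOXD13 replicate 2 exceeded HOXA13 replicate 3. Summits of 8 of the 9 lists fell between positions 112175558 and 112175596, and only that of wt HOXD13 replicate 3, at 112175331, lay outside. The other leading desert sites were Sox9_68 at 557 kb, Sox9_24 at 824 kb, Sox9_25 at 820 kb and Sox9_113 at 183 kb before the gene. Their fold enrichments over all lists ran from 5.81 to 15.7, 2.41 to 9.92, 3.94 to 8.92 and 2.93 to 16.8.

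Near the gene, the leading site after the promoter was Sox9_150, 103 kb past the Sox9 start. It was called in 7 lists, missing in wt HOXD13 replicates 1 and 3. Fold enrichments were 8.59, 4.47 and 4.68 in wt HOXA13, 5.15 in wt HOXD13 replicate 2, 12.6 and 11.2 in 542 HOXA13 and 14.7 in 542 HOXD13. The 542 values, which are not centred per list, were above all wt values, although the test below did not call this site. Centred on each list's median, its log2 difference of 542 minus wt HOXA13 was 0.61 (limma adjusted p = 0.289). Uncentred 542 HOXA13 values also lay above all wt HOXA13 values at Runx3_4, where the centred difference was 0.00. The share of all sites with that order is not given here.

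The leading sites of the SOX9 partners, whose gene bodies fill most of their windows, were intronic. Sox5_36 (chr6:143918057-143919087) had fold enrichments of 17.4, 15.1 and 9.04 in wt HOXA13 and 6.92, 10.7 and 7.0 in wt HOXD13. In 542 they were 16.3 and 16.4 with HOXA13 and 13.5 with HOXD13. Its median percentile of 99.6 was the highest among the member sites named, and summits of all lists fell within 31 bp. Wt HOXA13 replicates 1 and 2 were above all HOXD13 lists and replicate 3 was not. Sox6_112 (chr7:115919593-115921045) had a median percentile of 99.3 and fold enrichments of 13.8, 14.2 and 6.26 in wt HOXA13. It had 6.23, 10.7 and 5.34 in wt HOXD13, 11.2 and 11.1 in 542 HOXA13 and 10.8 in 542 HOXD13. Sox5 held 13 intronic sites in all 9 lists and Sox6 held 10.

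The RUNX genes differed in length and in where their sites lay. Runx2 held 4 of its 7 sites in all 9 lists in introns, and Runx3 held 6 of 7 outside the gene. The gene body took up 319 kb of the 618.8 kb window for Runx2 and 57.3 kb of 357.3 kb for Runx3. The part of gene length in these positions was not tested. Runx2_33 (chr17:44610036-44611462, intron) had 9.74, 6.93 and 6.70 in wt HOXA13, 3.81, 5.05 and 3.48 in wt HOXD13, 13.6 and 13.2 in 542 HOXA13 and 9.72 in 542 HOXD13. Every HOXA13 value at Runx2_33 was above every wt HOXD13 value. Between the wt lists, that order of uncentred values also occurred at Runx2_9, Pthlh_12, Runx3_8, Runx3_27 and Runx3_4. At Runx3_4 the centred log2 difference of HOXA13 minus HOXD13 was 0.15. The share of all sites with that order is not given here. Runx3_40 (chr4:135284747-135286047), 165 kb past the Runx3 start and beyond the neighbouring gene Clic4, had 13.5, 10.5 and 5.32 in wt HOXA13 and 5.73, 10.2 and 6.67 in wt HOXD13. It had 12.8 and 12.2 in 542 HOXA13 and 6.83 in 542 HOXD13, and the antibodies overlapped. Another of the Runx3 sites, Runx3_38, lay at the promoter of Clic4, a chloride channel gene.

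Around the matrix and signalling genes, whose bodies fill a small part of their windows, the leading sites were all distal. Acan_29 (chr7:79210439-79211638), 157 kb past the Acan start, had 16.8, 14.7 and 7.46 in wt HOXA13 and 6.41, 10.9 and 8.07 in wt HOXD13. In 542 it had 15.4 and 13.4 with HOXA13 and 11.4 with HOXD13 (median percentile 97.9). Pthlh_8 (chr6:147145165-147146266), 118 kb past the Pthlh start, had 11.7, 9.29 and 4.40 in wt HOXA13 and 4.68, 8.45 and 4.69 in wt HOXD13. Its 542 values, 14.8 and 13.8 with HOXA13 and 15.5 with HOXD13, were above those of all wt lists. Centred on each list's median, its log2 difference of 542 minus wt HOXA13 was 0.41 (limma adjusted p = 0.520), which did not pass the test below. Uncentred 542 HOXA13 values also lay above all wt HOXA13 values at Sox9_24, with a centred difference of 0.09, and that order has no background here. Ihh_18, 13.2 kb before Ihh, was weaker, at 3.64 to 7.92 over all lists. Pth1r_23, 34.7 kb before Pth1r, ranged from 5.70 to 12.3.

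**Figure D3:**
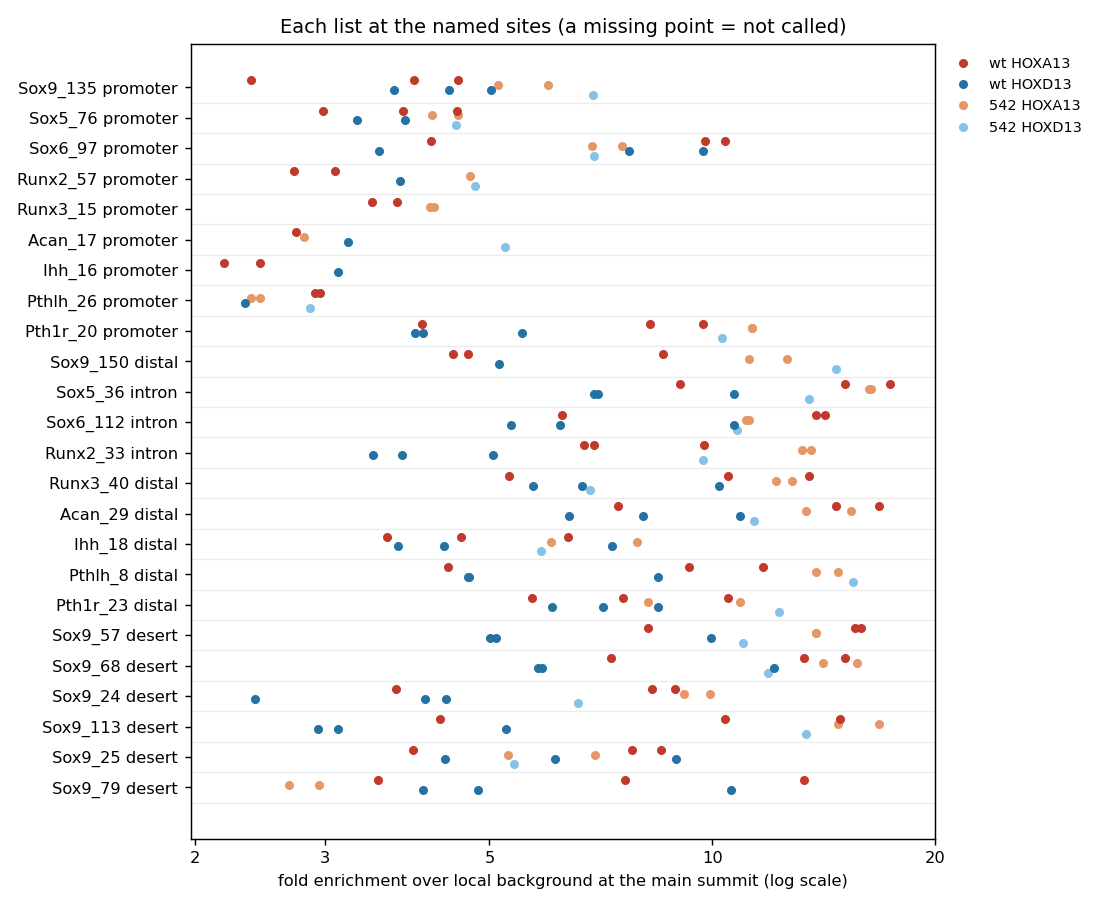
Fold enrichment over local background (x axis, log scale) of each list at the named sites (y axis), with 1 point per list coloured by genotype and antibody. Promoter points of Runx2, Runx3, Acan, Ihh and Pthlh stay at 5.25 or below, while the distal and intronic sites reach up to 17.4.

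At promoters, Sox9, Sox6 and Pth1r had a summit in all 6 wt lists. This is 3 of 9 genes (33.3%), against a background of 20.2% of all protein-coding genes (4126 of 20471). All 3 were also called in every 542 list. When only peaks with fold enrichment 5 or more were kept, the count was 0, and without wt HOXD13 replicate 1 it was 4, Sox5 being added. The shares of all genes at these settings are not given, so these counts lack a background.

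The Sox9 promoter had fold enrichments of 4.53, 3.95 and 2.38 in wt HOXA13 and 5.02, 4.41 and 3.72 in wt HOXD13. In 542 it had 5.99 and 5.14 with HOXA13 and 6.91 with HOXD13. In all wt and 542 HOXA13 lists except 542 replicate 1 this promoter was below each of the 5 leading desert sites, and in 542 replicate 1 it was above Sox9_25 alone. In wt HOXD13 it was above Sox9_24 in all 3 replicates and above Sox9_113 in replicates 1 and 3. In wt HOXD13 replicate 1 it was also just above Sox9_57 (5.02 against 5.01). In 542 HOXD13 it was above Sox9_24 and Sox9_25, so its place among these sites differed between lists. The Sox6 site (Sox6_97) lay at an internal start, 214 kb inside the gene. It had 10.4, 9.78 and 4.17 in wt HOXA13, 7.72, 9.73 and 3.55 in wt HOXD13, 7.56 and 6.87 in 542 HOXA13 and 6.92 in 542 HOXD13. The Pth1r promoter had 9.71, 8.24 and 4.06 in wt HOXA13, 3.97, 5.54 and 4.07 in wt HOXD13, 11.3 in both 542 HOXA13 lists and 10.3 in 542 HOXD13. Pth1r overlaps the myosin light chain gene Myl3 there, so its sites cannot be assigned to a gene by position.

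The other 6 promoters were called in fewer lists. Sox5 had a summit in 8, Runx2 and Pthlh in 6, Runx3 and Acan in 4 and Ihh in 3. The Sox5 summits lay at a cluster of 4 of its 5 annotated starts, well inside the gene record, and their fold enrichments were 2.98 to 4.52. Sox5_152 and Sox5_153 lay 0.440 kb on either side of the 5′ end of the Sox5 record. They were not counted as promoter sites, as none of the annotated starts used lies within 1000 bp of their summits. Runx2 has an outer and an inner promoter, and the inner one (Runx2_57) was called in 5 lists and the outer one (Runx2_72) in 3. Acan was called in wt HOXA13 replicate 1 at 2.74 and in wt HOXD13 replicate 2 at 3.22, and Ihh in no 542 list. The highest promoter value of each wt list that called one at Runx2, Runx3, Acan, Ihh or Pthlh was between 2.19 and 3.78. A second Ihh promoter site, Ihh_15, was called in wt HOXD13 replicate 2 alone, at 1.99.

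Of 28 further genes of cartilage differentiation, 25 were analysed, since Col9a3, Matn4 and Foxa2 lie on the part of chromosome 2 left out. Promoters of 4 of the 25 (16.0%) had a summit in all 6 wt lists, namely Hdac4 and Mef2c, which act in hypertrophy, Mef2d, and the BMP receptor gene Bmpr1b. Snorc, Matn1, Barx2 and Sp7 had none in any list. The promoter of Col2a1, the main collagen of cartilage, was called in 3 lists. A site in all 9 lists lay within 150 kb for 24 of the 25 genes and for 9 of the 9 members, against 77.8% of all coding genes, and the median density was 9.72 per Mb for the 25, 11.3 for the members and 6.17 for all genes. The window includes the gene body, so a long gene has more room for such a site, and the part of window length was not tested.

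The first comparison asked whether HOXA13 and HOXD13 were found at different sites in wt DFL. Both antibodies called 252 of the 732 sites (34.4%, against 28.7% of all sites). HOXA13 alone called 169 (23.1%, all sites 24.4%) and HOXD13 alone 95 (13.0%, all sites 12.6%), and 216 (29.5%, all sites 34.3%) were in 542 lists only. HOXA13 lists held 54917 to 82966 intervals and HOXD13 lists 22802 to 73263, and the part of list length in these shares was not tested. Sites in all 3 HOXA13 lists and no HOXD13 list numbered 9, which is 1.23% of the member sites, and the background was 0.897% of all sites. There were 0 sites in all 3 HOXD13 lists and no HOXA13 list, where the background was 0.0191%.

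The 9 sites with HOXA13 in all 3 lists and no HOXD13 were Sox9_11, Sox9_39, Sox9_84, Sox9_153, Sox6_57, Sox6_122, Sox5_72, Runx2_36 and Pthlh_14. Sox6_122, an intronic site, had the highest single wt value, with 6.80, 3.65 and 3.45 in HOXA13 replicates 1 to 3. Pthlh_14, 74.0 kb past the Pthlh start, had 6.66, 4.81 and 2.95, and Sox5_72 had 5.64, 4.81 and 4.39. The 542 HOXD13 list called 8 of the 9, among them Sox5_72 at 10.7 and Pthlh_14 at 8.91. The share that this list called among all sites of this kind is not given here, so the count lacks a background. That library differed from the wt HOXD13 libraries in genotype, labelled stage, mapping genome and list length (112430 intervals), which cannot be told apart. Sox9_84 was the only one without a call in any 542 list.

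The share of a list's intervals around each gene was compared next, in the window of 150 kb on either side. For Sox9 it was 1.57, 2.32 and 1.64 per 10000 in wt HOXA13 and 0.877, 1.50 and 1.39 in wt HOXD13 (1.84 ± 0.417 against 1.26 ± 0.333, SD, n = 3). Sox9 was the only member whose groups did not overlap (two-sided exact permutation test, p = 0.10, the smallest that 3 against 3 allow, and 0.906 after Benjamini-Hochberg adjustment over 20471 genes). HOXA13 was higher without overlap at 2.40% of all genes and HOXD13 at 8.63%, and 0 members belonged to the latter. For the other 8 genes the log2 ratio of HOXA13 to HOXD13 lay between −0.60 for Pth1r and 0.39 for Pthlh, with exact permutation p from 0.20 to 0.80. The Sox9 result was not found with numbers of intervals in place of shares. Without wt HOXA13 replicate 2, 5 members did not overlap, and without wt HOXD13 replicate 3, 4 did not, so the count of 1 turned on single libraries. Groups with fewer lists separate more easily, so the 2.40% and 8.63% of all genes are no background for these counts.

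Strength was compared at the 77 member sites called in all 6 wt lists, out of 13355 such sites. By limma on log2 fold enrichment, centred on each list's median, 0 member sites were higher with HOXA13 and 0 with HOXD13 at an adjusted p under 0.05. The background was 0% and 0.00749% of the fitted sites. These few calls turned on wt HOXA13 replicate 3. Without it, limma called 65 sites higher with HOXA13 and 253 higher with HOXD13 among all 13355, of which 1 and 0 were member sites, and with both replicates 3 left out 44 and 161, again with 1 and 0 member sites. Leaving out any other single wt list gave 0 in both directions. At an unadjusted p under 0.05, 6 member sites were higher with HOXA13 and 7 with HOXD13, which is 16.9% of the 77, against 13.6% of all fitted sites. The median log2 difference was 0.01 for the members and −0.01 for all sites.

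The member sites farthest apart were Sox9_113 and Sox6_25. Sox9_113, the desert site nearest the gene among those in all 9 lists, had 14.9, 10.4 and 4.29 with HOXA13 and 2.93, 5.26 and 3.12 with HOXD13. HOXA13 replicates 1 and 2 were above the 3 wt HOXD13 lists and replicate 3 was below wt HOXD13 replicate 2. The 542 HOXD13 list, which did not enter this fit, had 13.4 there, above wt HOXA13 replicate 2 and above all wt HOXD13 lists. The log2 difference of HOXA13 minus HOXD13 was 0.94 (SE 0.26, 95% interval 0.39 to 1.49, limma adjusted p = 0.172). It passed when wt HOXA13 replicate 3 was left out (1.22, limma adjusted p = 0.0161), and adjusted p ran from 0.0161 to 0.681 over the alternatives. Sox6_25, 577 kb past the Sox6 start and outside the gene, went the other way at −0.83 (SE 0.22, 95% interval −1.31 to −0.35, limma adjusted p = 0.169). It had 5.15, 3.81 and 3.03 with HOXA13 and 6.44, 6.25 and 4.26 with HOXD13. Its limma adjusted p ran from 0.0348 to 0.698 over the alternatives.

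At Runx2_33, where the antibodies did not overlap, the log2 difference was 0.60 (SE 0.21, 95% interval 0.14 to 1.06, limma adjusted p = 0.259). At Sox9_57 it was 0.68 (SE 0.22, 95% interval 0.20 to 1.16, limma adjusted p = 0.234), and at Sox5_36 it was 0.42 (SE 0.20, 95% interval −0.02 to 0.85, limma adjusted p = 0.387). The Sox9 promoter differed by −0.64 (SE 0.23, 95% interval −1.14 to −0.14, limma adjusted p = 0.264). None of these passed the threshold.

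The second comparison asked whether HOXA13 signal at these sites differed between line 542 and wt. It rested on 145 member sites called in all 5 HOXA13 lists, out of 27066. At an adjusted p under 0.05 limma called 0 member sites higher and 0 lower in 542, and the background was 0% in both directions. At an unadjusted p under 0.05, 4 were higher and 10 lower, which is 9.66% against 13.5% of all fitted sites. The median log2 difference of 542 minus wt was −0.06 for the members and −0.06 for all sites.

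Sox9_79 stood farthest from the diagonal. It lies in the desert at chr11:112327218-112328452, 454 kb before Sox9, and, like Sox9_1, Sox9_78 and Sox6_25 in these comparisons, it was singled out after its values were seen. Fold enrichments were 13.3, 7.62 and 3.53 in wt HOXA13, 4.07, 10.6 and 4.83 in wt HOXD13, and 2.68 and 2.94 in 542 HOXA13, and the site was not called in 542 HOXD13. All 6 wt values were above both 542 values. The recovered pileup at its summit was 125, 47 and 28 read ends in wt HOXA13 and 20 and 16 in 542 HOXA13. The log2 difference of 542 minus wt was −1.80 (SE 0.31, 95% interval −2.47 to −1.13, limma adjusted p = 0.110). Without wt HOXA13 replicate 3, the lowest wt list at this site, it was −2.11 (limma adjusted p = 0.00384), and adjusted p ran from 0.00384 to 0.998 over the alternatives. The neighbouring site Sox9_78, 462 kb before the gene, had 11.2, 6.61 and 4.03 in wt HOXA13 and 10.0 and 8.64 in 542 HOXA13, values that overlapped.

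At the far end of the desert, Sox9_1, 990 kb before the gene, had 3.76, 3.15 and 3.06 in wt HOXA13 and 8.09 and 9.75 in 542 HOXA13. Both 542 values exceeded all wt values, and the log2 difference was 0.96 (SE 0.25, 95% interval 0.42 to 1.51, limma adjusted p = 0.150). That order of uncentred values also occurred at sites with a negative centred difference, such as Ihh_6 (−0.06) and Pth1r_21 (−0.16). The share of all fitted sites with that order is not given here. The calls in this comparison turned on wt HOXA13 replicate 3. Without it, limma called Sox9_1 higher in 542 and 7 member sites lower, namely Sox9_79, Sox9_52, Sox5_4, Sox5_43, Sox5_118, Sox6_97 and Sox6_103, among 581 higher and 1109 lower of all 27066 sites.

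**Figure D4:**
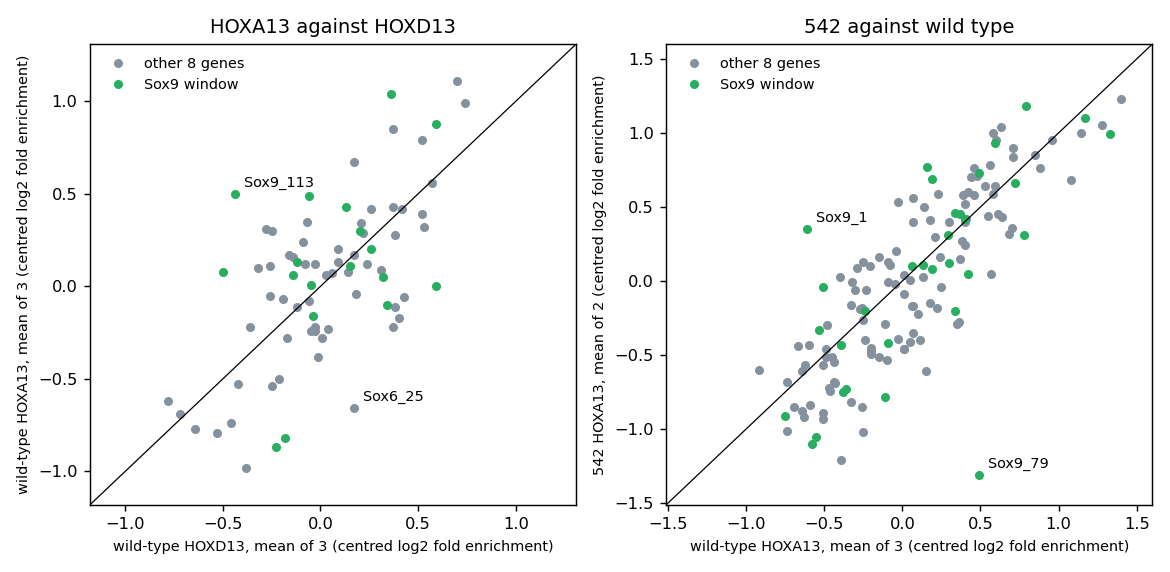
Mean centred log2 fold enrichment at the member sites, with wt HOXA13 against wt HOXD13 at 77 sites (left) and 542 HOXA13 against wt HOXA13 at 145 sites (right), 1 point per site, sites of the Sox9 window in green and the line of equality in black. Sox9_79 lies farthest below the line on the right, at a log2 difference of −1.80, and none of the points passed the adjusted threshold.

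The HOX13 consensus was counted in 25 bp on either side of the median summit. It occurred at 76 of the 732 member sites (10.4%, 95% Wilson interval 8.38 to 12.8, counting error only), against 10.6% of all sites and 2.46% of windows 1000 bp away from the member sites. The share was higher at sites in more lists. For member sites it was 6.48% in 1 list, 9.77% in 2 to 5, 16.7% in 6 to 8 and 19.2% (14 of 73) in all 9. Over all sites the same classes had 6.54%, 13.7%, 16.4% and 16.5%. Among member sites, the share was 11.9% in the Sox9 desert, 12.8% for Sox6, 11.9% for Runx2 and 3.12% (1 of 32) for Pth1r.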

How the data were processed

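CUT&RUN libraries of distal forelimb cells were trimmed with Cutadapt, aligned with bowtie2 and filtered with samtools by the authors, who treated duplicates with Picard (the sources differ on whether they were removed or only marked) and called peaks per library with MACS2 (q 0.05, read ends extended to 200 bp) without a control library. The 542 reads were aligned to the mutant genome and the wt reads to mm10. The deposited lists give, for each summit, fold enrichment (a ratio of pileup to local background), −log10 p and −log10 q at the summit, a score that follows −log10 q, and the summit offset. Pileups were recovered from the fold enrichment and −log10 p of each summit. They were whole within 0.01 for 99.99% or more of summits in each list. Read ends per library were derived from the lowest recovered background and were not checked in this way.

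Summits sharing an interval were counted as 1 interval, and intervals of the 9 lists that overlapped by at least 1 bp were merged into sites, on chromosomes 1 to 19 and X. Chromosome 2 beyond 75 Mb was left out. Genes and starts were those of the basic set of GENCODE M21 (GRCm38), and sequences were read from GRCm38. Groups followed genotype, stage and antibody in the labels. Strength was compared by limma 3.58.1 in R 4.3.3 on log2 fold enrichment centred per library, with Benjamini-Hochberg adjustment over all fitted sites and a threshold of 0.05, and shares of intervals by a two-sided exact permutation test (scipy 1.17.1). The fits were tested on simulated data. Named sites were, for each gene, the promoter site and the site outside promoters called in most lists, with ties ordered by the median percentile of −log10 p within the lists, and the 5 such sites of the Sox9 desert. Any other site named was chosen after its values were seen or belongs to a set of sites listed whole. The alternatives were a fold enrichment or −log10 q of at least 5, the 20000 strongest intervals, joined summits, other promoter, flank and motif windows, other scalings of the fits, numbers in place of shares, each library left out, and a replicate block. Leaving out both wt replicates 3, and the settings for the desert bins, were chosen after seeing the data. The members and gene lists were chosen with earlier results of these data known.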

Additional observations from a re-analysis of the deposited data

How the results depend on the processing

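Over all results, 81 alternatives left a count within 1.5 times its value, or the consensus share within its interval, and 32 did not. With a fold enrichment of at least 5, 0 member promoters were in all 6 wt lists, 8 member sites and 2 desert sites were in all 9 lists, and 148 bins matched the desert. With a −log10 q of at least 5 there were 42 member sites, 9 desert sites and 43 bins, and with the 20000 strongest intervals 33 member sites, 8 desert sites and 3 members without overlap between the antibodies. Joining summits within 200 bp gave 47 member sites and 7 bins. With both wt replicates 3 left out, 72 bins matched the desert, 4 members did not overlap and 1 member site was higher with HOXA13. Numbers of intervals in place of shares gave 0 members without overlap. For member promoters, member sites in all lists and members without overlap, the matching shares of all genes or sites are not given at these settings. Nor are they given with a library left out, so those member counts lack a background. The consensus was found at 18.3% of member sites within 50 bp of the summit, at 39.5% for the core of A or G before TAAA, and at 16.9% among the 20000 strongest intervals. Wider windows and shorter motifs match more often by construction, and the cause of the other changes was not tested.

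Leaving out 1 library at a time gave 1 to 5 members without overlap, 16 to 44 bins, 0 to 1 member sites higher with HOXA13, 0 to 1 higher in 542 and 0 to 7 lower in 542. Same-numbered replicates of the antibodies deviated from their group means with correlations of −0.0213, 0.230 and 0.538 over 13355 sites, and those of the genotypes with 0.0312 and 0.123 over 27066, so the numbers were not taken to pair the samples. With a replicate block, 1 member site was higher with HOXA13 (Sox9_113, limma adjusted p = 0.0275) and 1 with HOXD13 (Sox6_25, limma adjusted p = 0.0348) among 99 and 286 of all fitted sites. In the genotype comparison, 1 member site was higher and 7 lower in 542, among 602 and 1164 of all 27066. As 542 has no HOXA13 replicate 3, this block gave the same log2 differences as leaving out wt HOXA13 replicate 3. Both were counted as alternatives. Between the antibodies, 5 members had all same-numbered pairs of 1 sign in their share of intervals, against 6114 of all 20471 genes.

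Counts of sites shared by all lists depend on which lists are required, and the part of depth in them was not tested. Intervals on shares cover counting error only.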
